A study of Arabidopsis thaliana with 12 samples.

Results

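The transcripts of 6 REVEILLE genes and 2 LNK genes were followed in shoots of Arabidopsis thaliana, 8 of the 32992 genes used. They are named by locus identifier, under a rule that sets no threshold on their values, and were picked when earlier results of these data were known: RVE1 (AT5G17300), RVE2 (AT5G37260, also called CIR1), RVE4 (AT5G02840), RVE6 (AT5G52660), RVE7 (AT1G18330), RVE8 (AT3G09600), LNK1 (AT5G64170) and LNK2 (AT3G54500). The 4 groups were the accession Col, the accession C24 and their hybrids in both crossing directions, labelled Col/C24 and C24/Col, all described as wild type, with 3 replicates each. The sources used here do not say which accession served as mother. Shoots were taken at 14 days of age from plants in short days (8 h of light at 22 °C, 16 h of darkness at 18 °C). No time of day of harvest is given in these sources.

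REVEILLE proteins are Myb-like transcription factors related to the clock proteins CCA1 and LHY, and their transcripts are known to cycle with a peak around dawn. RVE4, RVE6 and RVE8 bind the evening element in promoters and activate genes expressed later in the day, whereas CCA1 and LHY repress through the same element. LNK1 and LNK2 do not bind DNA themselves and are recruited by REVEILLE proteins as coactivators, among others at PRR5 and TOC1. RVE1, RVE2 and RVE7 belong to another branch, placed at the output of the clock: RVE1 promotes auxin synthesis through YUC8, and RVE7 was described as an early target of phytochrome under the name EPR1.

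The libraries held an estimated 15.7 to 27.3 M reads (M is 1e6), and 17082 to 17420 genes per library reached 1 RPKM, which is reads per kilobase of gene and per M reads mapped. The shoot markers RBCS1A (10260.2 to 14206.52 RPKM) and GLK1 (36.91 to 90.70) were present in every library, while LHCB1.3, a light-harvesting protein gene, was listed at 0 in all 12. Of 4 root markers EXPA7 was listed at 0 everywhere, and the summed root level, nearly all from PYK10, was 70.85 to 96.69 RPKM in Col and 108.85 to 113.13 in C24. The 3 flower markers together stayed at or below 3.71 RPKM. The 4 ribosomal RNA genes among those used took 0.23% to 4.49% of the summed RPKM, which is not a share of reads. This share exceeded 2% in 4 libraries, Col replicates 1 and 2 and Col/C24 replicates 1 and 3. Libraries with the same replicate number deviated together from their group means, and the summed level of 4 stress and touch genes (HSP70, HSP101, TCH4, TCH3) was 1171.64 to 2650.91 RPKM in the replicates numbered 1, 311.08 to 486.64 in those numbered 2 and 490.52 to 789.90 in those numbered 3. The 4 libraries were left out, the ribosomal RNA share was fitted as a covariate and the replicate number as a block, and these values are given where they end or add a member's call; the part of the root, flower and stress genes in the results was not tested. Nothing in the labels says that replicates came from separate plants or pools, and the p-values therefore reflect only how far these samples differ, which may be technical.

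The 300 bases before the annotated start of each gene, from RefSeq's TAIR10.1 assembly, were searched on both strands for 3 motifs. The evening element AAAATATCT was found in 2.83% of 26690 promoters of that length, the CCA1 binding site AAAAATCT in 8.0% and the G-box CACGTG in 7.18%. No motif contains another. The promoters of RVE1 and RVE7 are shown because these genes differed most between the parents, and the motifs in them differ. Capitals mark the G-box of RVE1, 111 bases before its start at chr5:5692993-5693292 (minus strand), and the evening element of RVE7, 50 bases before its start at chr1:6308244-6308543 (minus strand).
RVE1 promoter: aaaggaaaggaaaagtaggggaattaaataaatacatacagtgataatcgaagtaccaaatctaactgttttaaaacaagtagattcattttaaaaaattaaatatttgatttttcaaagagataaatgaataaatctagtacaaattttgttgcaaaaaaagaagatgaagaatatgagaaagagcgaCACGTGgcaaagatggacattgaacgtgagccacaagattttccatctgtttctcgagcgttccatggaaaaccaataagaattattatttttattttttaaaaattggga
RVE7 promoter: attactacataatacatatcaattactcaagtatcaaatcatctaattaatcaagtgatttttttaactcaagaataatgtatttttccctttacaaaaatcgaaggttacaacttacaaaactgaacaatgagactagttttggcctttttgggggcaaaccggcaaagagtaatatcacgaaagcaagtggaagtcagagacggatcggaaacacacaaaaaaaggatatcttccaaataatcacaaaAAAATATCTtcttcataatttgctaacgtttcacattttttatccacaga
The RVE2 promoter held 1 CCA1 binding site, 244 bases before the start, and 1 G-box at 163 bases, and the RVE6 promoter held 1 CCA1 binding site at 58 bases. None of the 3 motifs was found in this window of RVE4, RVE8, LNK1 or LNK2. These are the letters of the Col reference; C24 sequence was not analysed here.

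RVE7 has a near copy on chromosome 3, AT3G10113, which bears on every RVE7 value below. Of its 1158 exon bases, 1103 aligned to RVE7 exons with 2 mismatches. The bases around the mismatches, 25 each from TAIR10.1, are shown because only reads across them or outside the aligned stretch can tell the genes apart. Capitals mark the differing base, T816G and A1458G, with the RVE7 base first and positions counted from 1 at the start of the joined RVE7 exons.
RVE7 at T816G: ttatggtcgtggTtggcgtcaaatc
AT3G10113 at T816G: ttatggtcgtggGtggcgtcaaatc
RVE7 at A1458G: gaacttggagaaAagtgcagagccg
AT3G10113 at A1458G: gaacttggagaaGagtgcagagccg
It is unknown how the authors' counting treated reads that match both genes, and the aligned stretch is 1103 of the 2026 RVE7 exon bases. The RVE7 level may be too high by reads of the copy, or too low if shared reads were dropped. The level of the copy is uncertain in the same way, and neither case was tested. Other members are less alike: RVE4 and RVE8 aligned over 583 exon bases with 95 mismatches.

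The gene models lie at chr5:5690225-5692992 (RVE1, minus strand), chr5:14751344-14753088 (RVE2, minus), chr1:6305814-6308243 (RVE7, minus), chr5:648648-651979 (RVE4, plus), chr5:21359001-21362273 (RVE6, minus), chr3:2946239-2949017 (RVE8, plus), chr5:25672466-25676823 (LNK1, minus) and chr3:20175370-20179070 (LNK2, minus), all in TAIR10.1. Values are per gene over its exons. LNK1 overlaps AT5G64160 on the opposite strand by 245 bases, and this neighbour was read at 13.23 to 21.14 RPKM. Over LNK2, AT3G54490 (0.10 to 0.34 RPKM) overlaps by 93 bases and the noncoding RNA gene AT3G08405 by 266. RVE1 shares 225 bases with AT5G17305. Whether counting used the strand is not stated, so reads in these stretches cannot be assigned.

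Across the 12 libraries the members fell into 4 levels of RPKM, a scale per length on which genes can be set side by side. LNK2 (mean 69.6 ± 6.66, SD), RVE4 (61.2 ± 5.14) and RVE7 (56.6 ± 16.3) were the highest, and their ranges overlapped. LNK1 followed at 16.4 ± 2.78 (11.86 to 20.81), apart from RVE7, whose lowest library was 35.27, and from RVE6 at 6.23 ± 0.855 (4.83 to 8.19). RVE1 (2.37 ± 1.15), RVE8 (2.05 ± 0.435) and RVE2 (0.961 ± 0.257) were lowest. The ranges of RVE1 and RVE8 overlapped, while the highest RVE2 library (1.36) lay just below the lowest RVE8 library (1.40). The highest RVE1 library, 4.46 RPKM in Col, lay below the lowest RVE6 library.

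**Figure D1:**
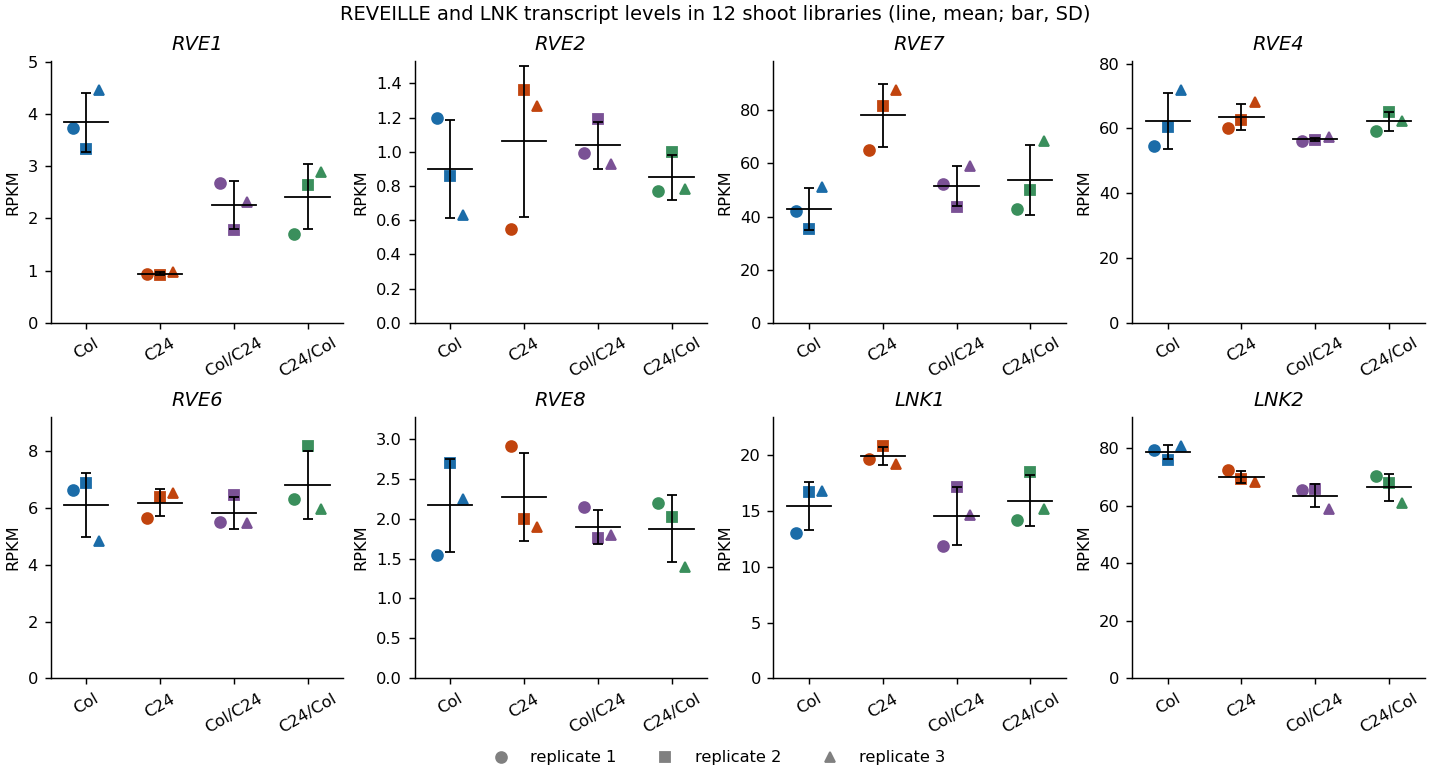
RPKM (vertical axis, from 0) of the 8 genes in each of the 12 libraries, by group, with symbols for the replicate number, a line at the group mean and a bar for the SD (n = 3). RVE1 is near 1 RPKM in the 3 C24 libraries and above 3 in the 3 Col libraries, while RVE7 is highest in C24 and the 4 groups of RVE4, RVE6 and RVE8 lie close together.

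The first comparison was between the parents, C24 against Col, tested with limma on log2(RPKM + 1) over 17927 genes with Benjamini-Hochberg adjustment. Of the 8 members 1 was higher in C24 (RVE7) and 1 lower (RVE1), where 22.7% of all genes passed (10.3% higher, 12.4% lower). The median log2 fold change was 0.04 over the members and -0.01 over all genes. Without the replicate number as a block LNK1 and LNK2 missed the threshold. With it, 2 members were higher and 2 lower, where 7490 of the 17927 genes passed (3628 higher, 3862 lower).

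RVE1, the clock output factor that raises auxin synthesis, gave 3.73, 3.33 and 4.46 RPKM in Col replicates 1, 2 and 3 and 0.93, 0.92 and 0.98 RPKM in C24. The groups stood far apart, and every C24 library was below every Col library. The mean RPKM was 4.07-fold higher in Col (3.84 ± 0.573 against 0.943 ± 0.0321, SD, n = 3), and the log2 fold change of C24 against Col on the RPKM + 1 scale, which understates changes of low genes, was -1.31 (SE 0.152, 95% interval -1.65 to -0.97, limma adjusted p = 0.000109). It passed the threshold under 22 of 22 alternatives. The C24 values rest on an estimated 35, 40 and 43 reads, a counting error of 15.3% to 16.9% for each library, which exceeds the spread between them; the Col values rest on 173 to 202 reads. Reads were aligned to a genome derived from Col, and a loss of C24 reads through sequence differences was not tested. In whole shoots, fewer cells of a type and less RNA per cell cannot be told apart.

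RVE7, the phytochrome-responsive relative, moved the other way. Its levels were 41.89, 35.27 and 51.21 RPKM in Col and 64.97, 81.62 and 87.56 RPKM in C24, again without overlap. Mean RPKM was 1.82-fold higher in C24 (78.05 ± 11.7 against 42.8 ± 8.01), with a log2 fold change of 0.86 (SE 0.193, interval 0.43 to 1.28, limma adjusted p = 0.00874). The call was lost without the replicates numbered 2 (0.69, adjusted p = 0.142) and without the 4 libraries above 2% ribosomal RNA (0.59, adjusted p = 0.274), a choice made after seeing the data. The near copy AT3G10113 gave 7.90, 7.99 and 10.18 RPKM in Col and 15.62, 15.90 and 19.01 in C24, a log2 fold change of 0.88 (limma adjusted p = 0.00353), lost under the same omissions (adjusted p = 0.0818 and 0.215). The ratio of RVE7 to the copy stayed between 3.97 and 5.30 over all 12 libraries, with a mean of 4.70 ± 0.392.

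RVE2, a clock output relative whose overexpression is known to alter the clock, was low everywhere, at 1.20, 0.86 and 0.63 RPKM in Col and 0.55, 1.36 and 1.27 in C24. The parents overlapped (log2 fold change 0.11, interval -0.26 to 0.47, limma adjusted p = 0.707), and at 10 to 29 estimated reads per library only a large difference was detectable. Within the branch of RVE1, RVE2 and RVE7, RVE7 made up 89.9% ± 0.886 of the summed RPKM in Col and 97.5% ± 0.246 in C24. The ratio of RVE7 to RVE1 was 10.6 to 11.5 in the Col libraries and 69.9 to 89.3 in the C24 libraries.

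**Figure D2:**
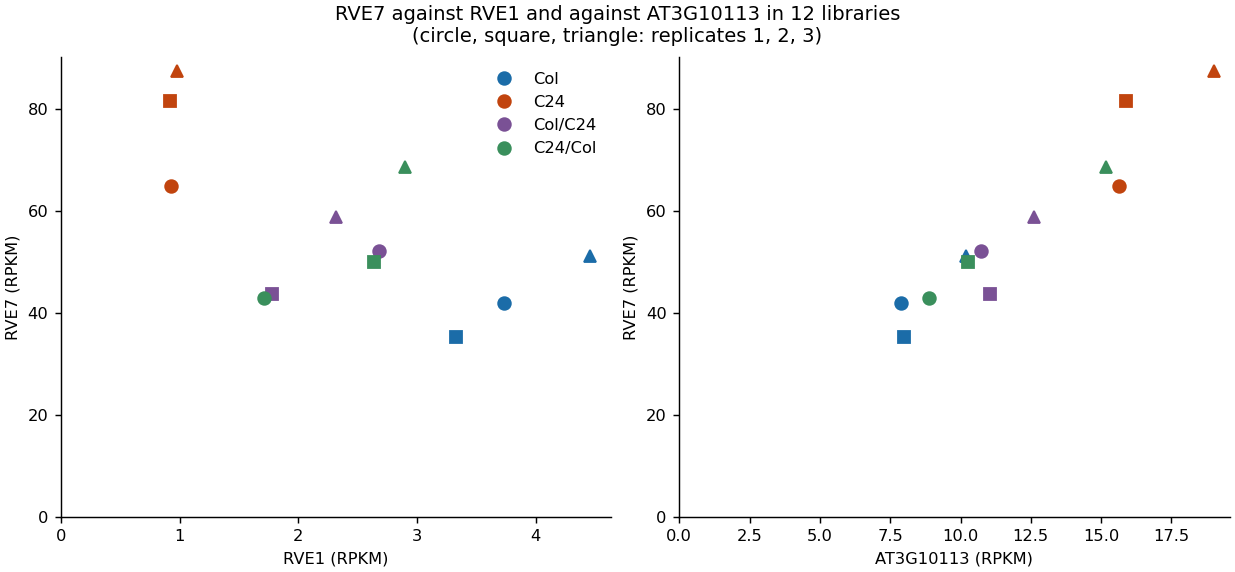
RPKM of RVE7 (vertical axes) against RPKM of RVE1 (left) and of its near copy AT3G10113 (right) in the 12 libraries, coloured by group, with circle, square and triangle for replicates 1, 2 and 3. On the left the C24 libraries sit at 0.92 to 0.98 RPKM of RVE1 with RVE7 at 64.97 or more, and on the right RVE7 stays at 3.97 to 5.30 times the copy.

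The evening-element activators showed no such split. RVE4, which with RVE8 is also known to activate heat and cold response genes, gave 54.70, 60.43 and 71.83 RPKM in Col and 60.12, 62.55 and 68.06 in C24 (log2 fold change 0.04, interval -0.17 to 0.24, limma adjusted p = 0.832). RVE6, its closely related partner, gave 6.63, 6.87 and 4.83 RPKM in Col and 5.66, 6.39 and 6.53 in C24 (0.03, interval -0.28 to 0.33, limma adjusted p = 0.913). RVE8, the member best known for activating PRR5 and TOC1, gave 1.55, 2.70 and 2.25 RPKM in Col and 2.91, 2.0 and 1.90 in C24 (0.05, interval -0.32 to 0.42, limma adjusted p = 0.869). For all 3 genes the parental libraries overlapped. RVE4 held 86.3% to 91.0% of the summed RPKM of the trio in every library, against means of 9.01% for RVE6 and 2.96% for RVE8.

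The coactivators leaned in opposite directions. LNK1 gave 12.99, 16.65 and 16.73 RPKM in Col and 19.67, 20.81 and 19.20 in C24. LNK2 gave 79.26, 75.94 and 80.82 RPKM in Col and 72.41, 69.33 and 68.25 in C24. For both genes the 3 C24 libraries lay on 1 side of the 3 Col libraries, LNK1 above and LNK2 below. With RVE1 and RVE7 this made 4 of 8 members whose parental libraries did not overlap, against 37.4% of all genes tested. Neither passed the threshold: the log2 fold change was 0.35 for LNK1 (SE 0.141, interval 0.04 to 0.66, limma adjusted p = 0.102) and -0.17 for LNK2 (SE 0.072, interval -0.33 to -0.01, limma adjusted p = 0.127). With the replicate block both passed (limma adjusted p = 0.00631 for LNK1 and 0.0411 for LNK2). LNK2 also passed with ribosomal RNA as covariate (-0.25, limma adjusted p = 0.0481). The ratio of LNK2 to LNK1 was 5.16 ± 0.823 in Col and 3.52 ± 0.177 in C24.

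The hybrids were then set against each parent, since expression between or beyond the parental levels describes how parental differences are inherited. The comparisons share the 6 hybrid libraries and are given side by side. Against Col, 2 of 8 members were lower (RVE1 and LNK2) and none higher, where 12.5% of all genes passed (4.17% higher, 8.29% lower). With median-of-ratios scaling of the libraries the all-gene calls were 1049 higher and 1187 lower in place of 747 and 1486. Against C24, 1 of 8 was higher (RVE1), where 7.52% of all genes passed (3.68% higher, 3.85% lower).

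In the hybrids RVE1 lay between the parents, at 2.68, 1.78 and 2.32 RPKM in Col/C24 and 1.71, 2.64 and 2.90 RPKM in C24/Col. All 6 hybrid libraries were above the 3 C24 libraries and below the 3 Col libraries. The log2 fold change was -0.54 against Col (SE 0.131, limma adjusted p = 0.0223) and 0.77 against C24 (SE 0.131, limma adjusted p = 0.00455). On the RPKM scale the group means were 54.5% of the way from Col to C24 in Col/C24 and 49.1% in C24/Col. The call against Col was lost without each replicate number in turn, without Col replicate 1 or Col replicate 3 and without the 4 libraries above 2% ribosomal RNA (limma adjusted p from 0.0582 to 0.206). The call against C24 was lost without the replicates numbered 2 (0.0797) or 3 (0.107) and without those 4 libraries (0.0984), by the same limma adjusted p.

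LNK2 in the hybrids was at 65.56, 65.99 and 58.98 RPKM in Col/C24 and 70.19, 67.99 and 61.04 in C24/Col. All 6 were below the 3 Col libraries, and they overlapped those of C24. The log2 fold change was -0.27 against Col (SE 0.062, interval -0.41 to -0.14, limma adjusted p = 0.0163) and -0.11 against C24 (interval -0.25 to 0.03, limma adjusted p = 0.374). The call against Col was lost under the same omissions as that of RVE1, with limma adjusted p from 0.0597 to 0.396.

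RVE7 in the hybrids gave 52.11, 43.75 and 58.84 RPKM in Col/C24 and 42.84, 50.00 and 68.55 RPKM in C24/Col, overlapping both parents. LNK1 gave 11.86, 17.09 and 14.61 RPKM in Col/C24 and 14.16, 18.45 and 15.13 in C24/Col, all below the 3 C24 libraries. Against C24 the log2 fold changes were -0.57 for RVE7 (limma adjusted p = 0.0708) and -0.38 for LNK1 (limma adjusted p = 0.0975), and with the replicate block both passed (0.0019 and 0.00421). Against Col they were 0.29 for RVE7 (limma adjusted p = 0.312, and 0.0419 with the block) and -0.02 for LNK1 (interval -0.29 to 0.24, limma adjusted p = 0.933). RVE4, RVE6, RVE8 and RVE2 passed against neither parent, with log2 fold changes from -0.17 to 0.04.

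**Figure D3:**
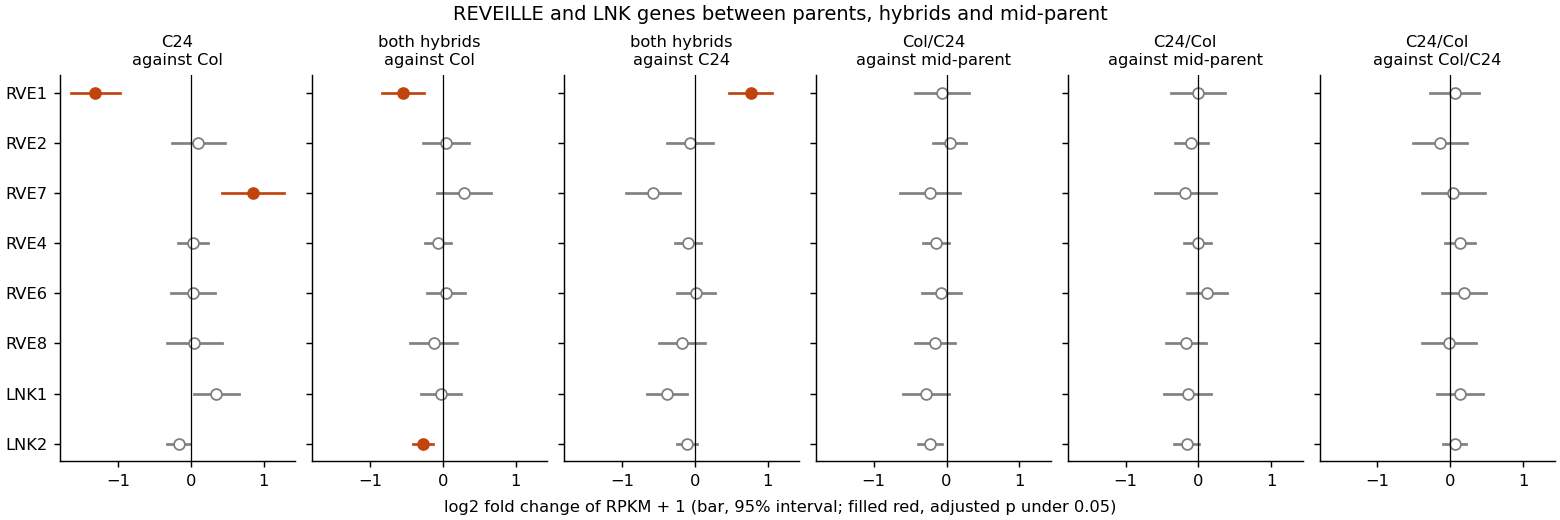
Log2 fold changes of RPKM + 1 (horizontal axes, points) with 95% intervals (bars) of the 8 genes for the comparisons between genotypes, filled red where the limma adjusted p was under 0.05. Only RVE1, RVE7 and LNK2 have a filled point in any of these comparisons.

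Set against the mean of the parents, 0 of 8 members passed in either hybrid by limma. For Col/C24, 0.0335% of all genes passed (0.00558% higher, 0.0279% lower) and 1 member had an unadjusted p under 0.05. For C24/Col, 0.0502% of all genes passed (0.0223% higher, 0.0279% lower) and 0 members had one. That member was LNK2, with a mid-parent mean of 74.3 ± 1.61 RPKM and 63.5 ± 3.93 in Col/C24 (log2 fold change -0.23, SE 0.074, unadjusted p = 0.0152, limma adjusted p = 0.507). In C24/Col its mean was 66.4 ± 4.78 (-0.16, SE 0.074, limma adjusted p = 0.824). With the replicate block 0 of 8 members passed in either hybrid. In Col/C24 4 members and 4573 of 17927 genes then had an unadjusted limma p under 0.05. In C24/Col 1 member and 3508 genes had one. LNK2, LNK1, RVE7 and RVE8 were below the mid-parent value of the same replicate number in 3 of 3 libraries of both hybrids, without passing the test. Both hybrids were set against the same mid-parent values, and the share of all genes with this pattern was not counted. The median over all genes was itself -0.09 in Col/C24 and 0.00 in C24/Col. RVE1 was close to the mid-parent in both, at -0.06 (interval -0.43 to 0.30) in Col/C24 and 0.00 (interval -0.37 to 0.36) in C24/Col, with limma adjusted p = 0.947 and 0.999.

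Between the reciprocal hybrids, C24/Col against Col/C24, 0 of 8 members passed, and of all genes 0% did by limma; 0 members and 745 of all genes had an unadjusted p under 0.05. The size of the members' log2 fold changes was at most 0.19, that of RVE6, at 5.51, 6.46 and 5.47 RPKM in Col/C24 and 6.32, 8.19 and 5.95 in C24/Col (interval -0.11 to 0.50, limma adjusted p = 0.935). RVE4 was the 1 of 8 members whose hybrid groups did not overlap, against 10.4% of all genes tested, at 56.06, 56.52 and 57.25 RPKM in Col/C24 and 59.29, 65.13 and 62.37 in C24/Col. Its log2 fold change was 0.13 (interval -0.07 to 0.34, limma adjusted p = 0.935), while the median over all genes was 0.09. RVE8 gave 2.14, 1.76 and 1.79 RPKM in Col/C24 and 2.20, 2.02 and 1.40 in C24/Col, and RVE2 gave 0.99, 1.19 and 0.93 against 0.77, 1.0 and 0.78.

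The replicate numbers were compared within the genotypes, because transcripts of this family cycle through the day and libraries with the same number deviated together. The labels do not say what a number shares. For replicate 1 against replicates 2 and 3, 1 of 8 members passed (LNK1, lower) where 34.1% of all genes did (16.6% higher, 17.5% lower). For replicate 3 against replicate 2, 1 of 8 passed (RVE7, higher) where 12.5% of all genes did (5.68% higher, 6.82% lower). Both shares of members were at or below the share of all genes.

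LNK1 averaged 14.7 ± 3.46 RPKM over the 4 libraries numbered 1, 18.25 ± 1.87 over those numbered 2 and 16.4 ± 2.06 over those numbered 3. Replicate 1 was the lowest of the 3 in 3 of 4 genotypes, C24 being the exception, and the log2 fold change was -0.24 (SE 0.063, limma adjusted p = 0.0127). The call was lost without Col/C24 replicate 1 (adjusted p = 0.0731) and without a genotype term (adjusted p = 0.214). It was also lost without the 4 libraries above 2% ribosomal RNA (log2 fold change -0.12). RVE4 was lowest in replicate 1 in 4 of 4 genotypes but missed the threshold (-0.13, limma adjusted p = 0.0843), as did RVE7 (-0.20, limma adjusted p = 0.0869). RVE4 passed with ribosomal RNA as covariate (adjusted p = 0.0471), and RVE7 without the 4 libraries (-0.41, adjusted p = 0.0217).

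RVE7 averaged 52.7 ± 20.2 RPKM in the libraries numbered 2 and 66.5 ± 15.7 in those numbered 3, and was higher in replicate 3 in 4 of 4 genotypes. The log2 fold change was 0.37 (SE 0.096, limma adjusted p = 0.0284). Leaving out any one of replicates 2 and 3 of Col, Col/C24 or C24/Col ended the call (adjusted p from 0.0539 to 0.119). It was also lost without the low-value filter (adjusted p = 0.0727) and without a genotype term (adjusted p = 0.589). The same held without the 4 libraries above 2% ribosomal RNA (log2 fold change 0.27). RVE1 was also higher in replicate 3 than in replicate 2 in 4 of 4 genotypes, with a log2 fold change of 0.18 that did not pass (limma adjusted p = 0.366). RVE2, of the same branch, went the other way, being higher in replicate 3 in 0 of 4 genotypes, and did not pass either. The share of all genes with the same direction in 4 of 4 genotypes was not counted. RVE6 was higher in replicate 2 in 3 of 4 genotypes (-0.25 for replicate 3 against 2, limma adjusted p = 0.0927).

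**Figure D4:**
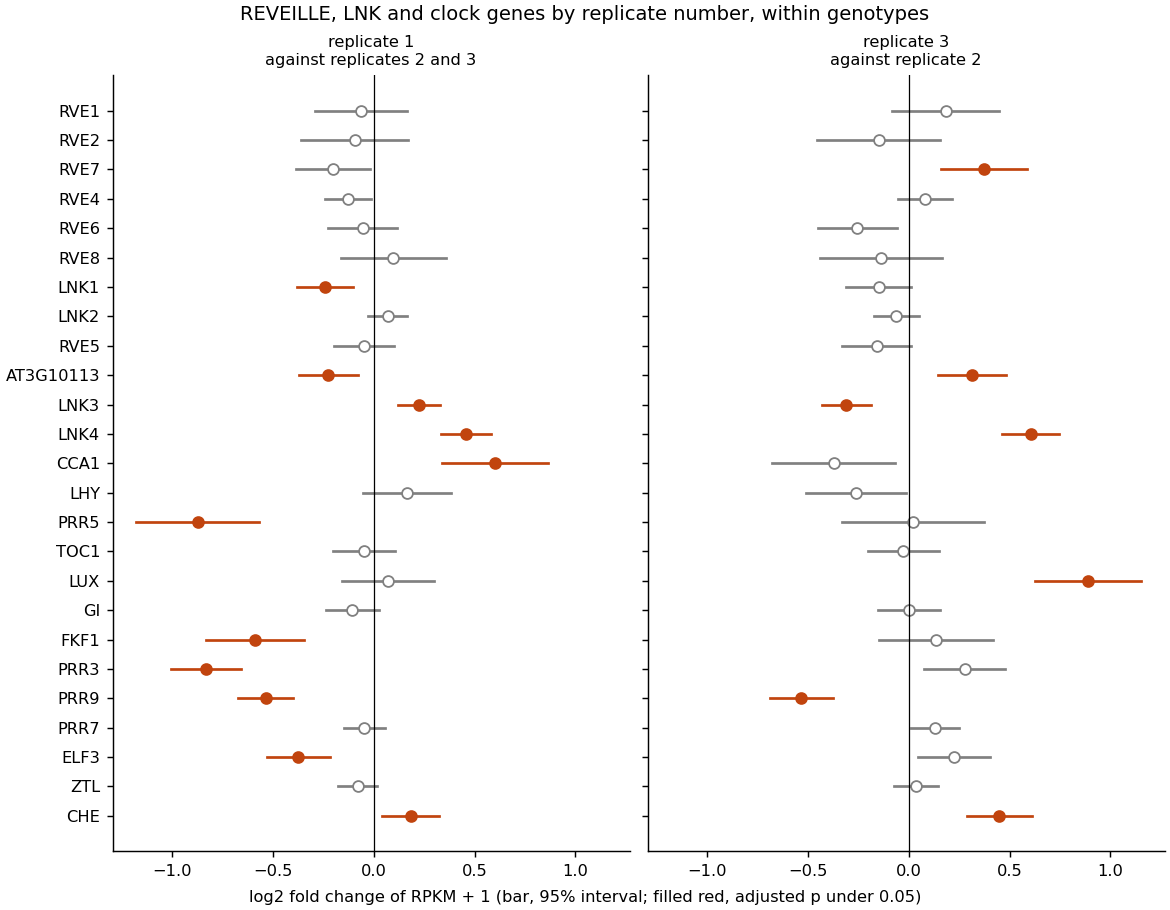
Log2 fold changes of RPKM + 1 (horizontal axes, points) with 95% intervals (bars) between replicate numbers within genotypes, for the members and the related clock genes, filled red where the limma adjusted p was under 0.05. Of the members only LNK1 (replicate 1 against 2 and 3) and RVE7 (replicate 3 against 2) are filled, while PRR5, LNK4, CCA1 and LUX among the other genes are each filled in at least 1 of the panels.

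Genes of the same pathway were described from lists, drawn up with earlier results of these data known, of relatives (7 genes, 6 tested), evening clock genes (8, of which 6 tested), other clock genes (5) and outputs (15, of which 13 tested). RVE3 (0.06 to 0.37 RPKM), ELF4, BOA, MYB75 and UF3GT fell below the filter. In C24 against Col the near copy of RVE7 was the 1 relative that passed, and its reads may in part be those of RVE7. Of the 5 other clock genes 0 passed, with 0 at an unadjusted p under 0.05. The most abundant of these, PRR7 and CHE, differed by 0.08 and 0.14 on the log2 scale (limma adjusted p = 0.564 and 0.667). Among evening genes only PRR3, a relative of TOC1, was called, with 7.34 ± 3.34 RPKM in the C24 libraries and 2.05 ± 0.663 in those of Col (1.39 on the log2 scale, limma adjusted p = 0.0201). That call was lost without the replicates numbered 2 or 3, when replicate 1 of Col or replicate 2 or 3 of C24 was left out, with ribosomal RNA as covariate and without the 4 libraries above 2% ribosomal RNA (adjusted p from 0.0554 to 0.29). PRR5 (15.3 ± 8.13 against 10.9 ± 2.13 RPKM) and TOC1 (13.9 ± 1.83 against 16.3 ± 1.24), at which RVE8 and the LNK proteins act, did not pass. With the replicate block the calls were 2 higher and 1 lower among relatives and 2 and 0 among evening genes. They were 0 and 1 among other clock genes and 2 and 8 among outputs, where 7490 of 17927 genes passed.

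Of 13 outputs 5 were lower in C24 than in Col and none higher, where 12.4% of all genes were lower and 10.3% higher. The 5 were DFR, LDOX, YUC8, TT4 and TT7. The median was -0.82 over the outputs against -0.01 over all genes. DFR, an anthocyanin enzyme of a pathway that RVE8 and LNK proteins are known to regulate, gave 3.59, with an SD of 0.656, in C24 and 11.5, with an SD of 2.68, in Col as mean RPKM (log2 fold change -1.43, limma adjusted p = 0.000307). LDOX, the next enzyme of that pathway, was at 2.27 ± 1.02 against 5.17 ± 1.61 RPKM (-0.92, limma adjusted p = 0.0198). YUC8, the auxin synthesis gene that RVE1 activates, was at 1.24 ± 0.714 against 2.90 ± 0.545 RPKM (-0.83, limma adjusted p = 0.0189). Without the 4 libraries above 2% ribosomal RNA only DFR of the 5 kept its call. YUC8 was also lost without the replicates numbered 1 or 2, when replicate 1 or 3 of Col or replicate 1 or 2 of C24 was left out, and with the ribosomal RNA covariate (adjusted p from 0.056 to 0.145). LDOX was lost without the replicates numbered 2, without replicate 1 or 2 of Col or replicate 2 or 3 of C24, with that covariate and with only the parents in the fit (adjusted p from 0.0626 to 0.22). Taken as 1 group, the 6 hybrid libraries were above C24 in 3 of 13 outputs, where 3.68% of all genes were higher. The 3 were DFR at 11.3 ± 1.85 RPKM (1.42, limma adjusted p = 0.000289), TT4 at 15.2 ± 2.59 (0.83, adjusted p = 0.00896) and YUC8 at 2.65 ± 0.555 (0.73, adjusted p = 0.0416). TT4, which encodes chalcone synthase, lost its call without any 1 replicate number (adjusted p from 0.0596 to 0.0893), and YUC8 lost it under 16 of 21 alternatives. Against Col and against the mid-parent, and between the reciprocal hybrids, 0 genes of the 4 lists passed by limma, with 0 to 3 per list at an unadjusted p under 0.05. Their most abundant tested genes (LNK4, LNK3, GI, LUX, PRR7, CHE, PIF4 and PIF5) had log2 fold changes from -0.27 to 0.27 against Col, and the closest to passing was GI against Col, at a limma adjusted p of 0.0505. With the block, calls against Col were 2 higher and 1 lower among relatives and 2 and 0 among evening genes. They were 0 and 1 among other clock genes and 4 and 2 among outputs, where 5357 of 17927 genes passed. Against C24 the calls were then 0 and 2, 0 and 1, 0 and 0, and 5 and 1, where 3973 of 17927 genes passed. Against the mid-parent the block gave 1 relative (lower) and 4 outputs (2 in each direction) in Col/C24, where 519 of 17927 genes passed. In C24/Col it gave 1 evening gene and 1 output, both higher, where 282 of 17927 genes passed.

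The lists were also compared between replicate numbers. In replicate 1 against replicates 2 and 3, where 34.1% of all genes passed, 4 of 6 relatives did, 3 higher and 1 lower. The lower 1 was the near copy AT3G10113, whose reads may in part be those of RVE7. CCA1, the repressor of the evening element, was higher (log2 fold change 0.60, limma adjusted p = 0.00279). Its replicates numbered 1 gave 10.91, 17.64, 10.37 and 11.85 RPKM, parents first. The group means of CCA1 over all 3 replicates were 10.18, 11.52, 7.88 and 8.75 in that order. LNK4 was also higher (0.46, limma adjusted p = 9.89e-05). Of the evening genes 3 of 6 passed, all lower, led by PRR5 at 8.50, 5.97, 8.62 and 9.73 RPKM in the replicates numbered 1 and 11.69 to 20.38 in the others (-0.87, limma adjusted p = 0.000645). In replicate 3 against replicate 2, 12.5% of all genes passed. Of 6 relatives 2 were higher (LNK4 and AT3G10113) and 1 lower (LNK3). Of 6 evening genes 1 was higher (LUX), and of 5 other clock genes 1 was higher (CHE) and 1 lower (PRR9). The log2 fold change was 0.61 for LNK4 (limma adjusted p = 0.00027) and 0.89 for LUX (limma adjusted p = 0.000963). Both calls were lost without the 4 libraries above 2% ribosomal RNA (log2 fold changes 0.535 and 0.871). ERF53, a target of RVE4 and RVE8 in heat, was lower in replicate 3 (-1.23, adjusted p = 3.82e-05). Of the outputs 6 of 13 were lower there and none higher, with a median of -0.38 against -0.01 over all genes; without the 4 libraries 1 of 13 passed.

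The genes most like each member over the 12 libraries, by Pearson's r of log2(RPKM + 1) among 6055 or 6056 genes with a symbol and a mean of at least 5 RPKM, were described without a test, since the libraries share groups and replicate numbers. For RVE1 they were EMB2421 (r = 0.975), POB1 (0.966) and HDA15 (0.958). RVE7 was most like KUP6 (0.951), IAA9 (0.941) and scpl31 (0.938). LNK1 was closest to NdhM (0.946), RNEE/G (0.944) and LACS2 (0.936), and LNK2 to CYTC-1 (0.938), CRK18 (0.935) and CPZ (0.935). The highest r was lower for RVE4 (GPX8, 0.894), RVE6 (ARR9, 0.858), RVE8 (MUB6, 0.82) and RVE2 (SIP1, 0.773). Among the members themselves r ran from -0.63 for RVE1 with RVE7 to 0.58 for RVE4 with LNK1.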

How the data were processed

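Polyadenylated RNA from 12 shoot libraries was analysed. Reads were aligned with TopHat to TAIR10, per the submitters' processing notes. How they were counted, on which annotation and with what use of strand is not given in the sources used here. For each gene the authors deposited 1 value, read from its spacing as RPKM. For genes of 150 to 600 bases, 68.3% to 72.6% of low values were whole reads within 0.15 of a read on either side. The depth of each library was the one that made this share highest. Values unrelated to whole reads would also meet that tolerance in part. Estimated reads were not used for tests, and intervals from them cover counting error only. Of 33559 identifiers, 567 repeated ones were left out, leaving 32992 genes, of which 32248 matched TAIR10.1 by locus tag.

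The 17927 genes that reached 1 RPKM in 3 or more libraries were fitted on log2(RPKM + 1) with limma 3.58.1 in R 4.3.3 (moderated variances with a trend) and adjusted by Benjamini and Hochberg, with a threshold of 0.05. All 12 libraries entered 1 fit of 4 groups; mid-parent profiles (Col and C24 values averaged within a replicate number) were fitted with the 6 hybrid libraries; replicate contrasts kept the genotype as a term. A count model was not used, since the values are RPKM. As a check of pairing, deviations from the group means gave correlations between 0.54 and 0.83 for same-numbered libraries (18 pairs) and between -0.65 and 0.19 for the others (36 pairs). The numbers thus pair the samples by the data, while no label mentions a batch. The members and lists were chosen with earlier results of these data known. All 8 members are named, with the 3 genes most like each member. Of each list up to 3 passing genes are named (the largest log2 fold changes), or the 2 with the highest means where none passed. PRR5 and TOC1 in the parents, all 5 outputs lower in C24 and the examples in the replicate contrasts were picked outside that rule. The fits were tested on simulated data drawn independently for each library. The deviations shared by same-numbered libraries were not simulated, so that test does not cover them. Python 3.11.15, numpy 2.4.6, pandas 2.3.3, matplotlib 3.10.9 and BLAST 2.17.0 were also used.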

Additional observations from a re-analysis of the deposited data

Results flagged for a closer look

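RVE6 was the 1 member for which the hybrids lay on opposite sides of the parents' mean in every replicate: 0 of 3 Col/C24 libraries and 3 of 3 C24/Col libraries were above the mid-parent value of the same number. That difference from the mid-parent was not tested as such. The direct contrast of C24/Col against Col/C24 was 0.19 on the log2 scale and did not pass (limma adjusted p = 0.935). The median over all genes in that contrast was 0.09. The share of all genes split between the hybrids in this way was not counted. Groups of 3 libraries were not tested for outlying samples.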

How the results depend on the processing

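The alternatives were a pseudocount of 0.1, no filter on low values, median-of-ratios scaling, the replicate block, the ribosomal RNA share as a covariate, only the groups compared, a geometric mid-parent, no genotype term in the replicate contrasts, and each replicate left out. Removal of the 4 libraries above 2% ribosomal RNA was added after seeing the data and left Col and Col/C24 with 1 library apiece, which is assumed to vary like the other groups. Of 1280 alternative values for the 64 pairs of a member and a comparison, 1238 kept direction and side of the threshold or stayed uncalled (76 of them changed sign uncalled), 29 lost a call, 13 gained one and 0 called values changed sign.

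For C24 against Col, members called went from 2 to 4 with the block and to 1 without the 4 libraries (1 to 2 with replicates left out). For both hybrids against Col, 2 went to 3 with the block and to 0 without the 4 libraries (0 to 2). For both hybrids against C24, 1 went to 3 with the block and 0 without the 4 libraries (0 to 2). For replicate 1 against 2 and 3, 1 went to 2 with the ribosomal RNA covariate and 0 with no genotype term (1 to 2). For replicate 3 against 2, 1 went to 0 with no filter, with no genotype term and without the 4 libraries (0 to 2). The mid-parent and reciprocal comparisons stayed at 0. The cause was not tested.

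Over all genes, the block moved calls from 4071 to 7490 (C24 against Col), 6 to 519 and 9 to 282 (Col/C24 and C24/Col against the mid-parent), 2233 to 5357 and 1349 to 3973 (hybrids against Col and C24). The removal gave 1370, 0, 0, 162 and 516 in that order, 3027 of 6116 (replicate 1 against 2 and 3) and 151 of 2242 (replicate 3 against 2). The ribosomal RNA covariate gave 1 and 1 for the mid-parent comparisons and 771 for the hybrids against C24, a geometric mid-parent 88 and 122, and the replicate contrasts without a genotype term 2768 and 430. The block changed no member call other than those given with the comparisons. RVE2 had 10 to 29 estimated reads per library, RVE8 52 to 173 and RVE1 in C24 35 to 43.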
